A study of Homo sapiens with 24 samples.

Results

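MHC class I antigen presentation was followed through 9 genes, HLA-B, HLA-C, HLA-E, B2M, TAP1, TAP2, TAPBP, PSMB8 and PSMB9, taken by symbol from the 58721 genes of a raw count table. Transcripts were counted by 3′ RNA-seq, in which reads start near the polyadenylated end, in RT112, a bladder cancer line of the luminal papillary class (LumP), and in SCaBER, a bladder cancer line of the basal/squamous class (Ba/Sq). Each line received 6 siRNA treatments, namely a control siRNA (siControl), either of 2 siRNAs against the transcription factor gene ZBED2 (siZBED2-1, siZBED2-2), an siRNA against FOXA1, a forkhead factor of luminal urothelium (siFOXA1), and a double knock-down that combines siFOXA1 with 1 of the ZBED2 siRNAs. All 24 libraries, controls included, came from cells transfected with the same lipid reagent, and 2 libraries stand behind each of the 12 groups. The labels number the libraries of a group by experiment batch and say nothing further of separate cultures, so p-values measure the spread between these libraries, which may be technical. Each class is represented by 1 line, so class and line cannot be told apart, and in bulk RNA fewer expressing cells and less RNA per cell cannot be told apart either.

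MHC class I molecules show fragments of a cell's own proteins to cytotoxic T cells. Proteins are cut by the proteasome, in which the interferon-inducible subunits PSMB8 and PSMB9 can take the places of the constitutive PSMB5 and PSMB6. The transporter made of TAP1 and TAP2 carries the peptides into the endoplasmic reticulum, and tapasin (TAPBP) bridges the transporter to a heavy chain (HLA-B, HLA-C or the non-classical HLA-E) that has paired with the light chain B2M. Interferon raises these genes through IRF1 and the class I transactivator NLRC5, and their loss is a known route of immune escape in epithelial tumours.

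Of the 9 genes, 8 lie on chromosome 6 in the major histocompatibility complex, and B2M lies on chromosome 15 (44711517 to 44718145, RefSeq on GRCh38.p14). HLA-E is at 30489509 to 30494194, HLA-C at 31268749 to 31272092, HLA-B at 31353875 to 31357179 and TAPBP at 33299694 to 33314078. TAP2 (32821831 to 32838739), PSMB8 (32840717 to 32844679), TAP1 (32845209 to 32853704) and PSMB9 (32854192 to 32859851) stand side by side, with 1977 bases between TAP2 and PSMB8, 529 between PSMB8 and TAP1, and 487 between TAP1 and PSMB9, which are read away from each other.

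The 250 bases before the start of 4 members are shown because they hold the letters of elements that class I genes are known for. They come from RefSeq promoter windows on GRCh38.p14, are written 5′ to 3′ on the strand of the gene, and cover chr6:31357180-31357429 (minus strand) for HLA-B, chr6:32853705-32853954 (minus) for TAP1, chr6:33314079-33314328 (minus) for TAPBP and chr15:44711267-44711516 (plus) for B2M. Capitals mark an interferon-stimulated response element (ISRE, the letters GAAA, 2 bases of any kind and GAAA, or, as in HLA genes, GAA, 2 bases of any kind and GAAAC) or a kB element (the run that begins GGGGA in HLA-B, and the run that begins GGGAC in TAP1 and is read on the other strand in B2M) on either strand.
HLA-B: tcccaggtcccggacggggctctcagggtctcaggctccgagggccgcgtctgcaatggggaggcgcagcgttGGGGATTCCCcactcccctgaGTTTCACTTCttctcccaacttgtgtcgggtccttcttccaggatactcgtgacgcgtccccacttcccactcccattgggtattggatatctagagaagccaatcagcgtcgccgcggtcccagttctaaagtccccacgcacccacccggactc
TAP1: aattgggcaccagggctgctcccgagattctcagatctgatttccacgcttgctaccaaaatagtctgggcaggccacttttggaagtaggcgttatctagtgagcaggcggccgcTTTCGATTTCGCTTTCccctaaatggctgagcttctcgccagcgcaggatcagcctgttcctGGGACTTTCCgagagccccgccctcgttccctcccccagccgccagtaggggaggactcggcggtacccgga
TAPBP: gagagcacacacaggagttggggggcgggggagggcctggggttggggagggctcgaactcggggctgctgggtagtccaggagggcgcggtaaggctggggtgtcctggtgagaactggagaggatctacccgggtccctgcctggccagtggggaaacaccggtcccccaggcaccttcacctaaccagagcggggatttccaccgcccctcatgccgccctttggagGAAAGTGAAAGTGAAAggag
B2M: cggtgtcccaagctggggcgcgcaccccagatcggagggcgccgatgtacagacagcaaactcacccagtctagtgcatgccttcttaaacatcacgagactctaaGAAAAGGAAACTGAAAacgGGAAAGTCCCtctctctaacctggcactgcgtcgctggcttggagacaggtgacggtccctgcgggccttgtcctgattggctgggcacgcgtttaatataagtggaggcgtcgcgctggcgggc
In windows of 300 bases (250 before and 50 after the start), either ISRE form was found in 7 of the 10 windows of the 8 members with an entry, against 4.9% of all 35116 windows, and PSMB8 and TAP1 have 2 windows each. The first ISRE form alone was found in 5 of these 10 windows, against 3.57% of all windows. TAP1, TAPBP and B2M each hold 2 overlapping copies of it. Among the members the second form was found in HLA-B and HLA-C alone, against 1.46% of all windows. Because its letters were written as in HLA genes, these matches are no independent support. The window of PSMB9 held neither ISRE form. The copies of the first form before TAP1, which lies on the far side of the stretch between them, begin 354 and 360 bases before the start of PSMB9. The kB letters of HLA-B were found in no other member's window (0.0769% of all windows) and those of TAP1 and B2M in these windows alone among the members (0.191%). The forkhead letters TGTTTAC were in the window of 0 members and in 3.42% of all windows. A match is a description of letters and not a site, and no match says only that these letters are not in this window.

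B2M and, in SCaBER, PSMB9 were the well counted members, with 70 to 218 B2M reads per RT112 library, 225 to 785 per SCaBER library and 300 to 744 PSMB9 reads per SCaBER library. TAP2 had 0 reads in all 24 libraries and TAP1 had 14 in RT112 and 52 in SCaBER over 12 libraries each, so the peptide transporter could not be tested. HLA-B had 0 to 22 reads per RT112 library and 15 to 103 per SCaBER library, and HLA-C had 31 reads over all RT112 libraries. In all, 6 of 9 members passed the filter on low counts in RT112 and 7 of 9 in SCaBER. A count of 0 allows up to 3 counts, worth 0.48 to 0.68 CPM (reads relative to the library's TMM-adjusted total) per library, and this limit covers counting error only.

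Low counts were common across the chromosomal stretch, though not in every gene of it. Between HLA-F and TAPBP (chromosome 6, 29723434 to 33314078) the median count summed over 24 libraries was 6 for 133 protein-coding genes, against 842 for 787 genes on the rest of chromosome 6 and 723 for 17671 on other chromosomes. In the stretch 42.9% of genes had no read at all, against 22.5% and 21.8%, and 7.52% had over 1000 reads, against 48.2% and 47%. Genes that nearly every cell uses were among the empty ones, with examples chosen after their values were seen. The tubulin gene TUBB had 15 reads in all libraries together and TUBA1B on another chromosome 217608, and the kinase subunit gene CSNK2B and the helicase gene DDX39B had 0, while ABCF1 and RPS18 in the same stretch had 22777 and 187952. Near B2M on chromosome 15, EIF3J had 31868 reads and SPG11 2612. Values of the 8 members on chromosome 6 are therefore given as reads that reached the table. Why so many genes of the stretch have few reads was not tested. For these members a difference between the lines in RNA and a difference in how well an allele matched the reference cannot be told apart.

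**Figure D1:**
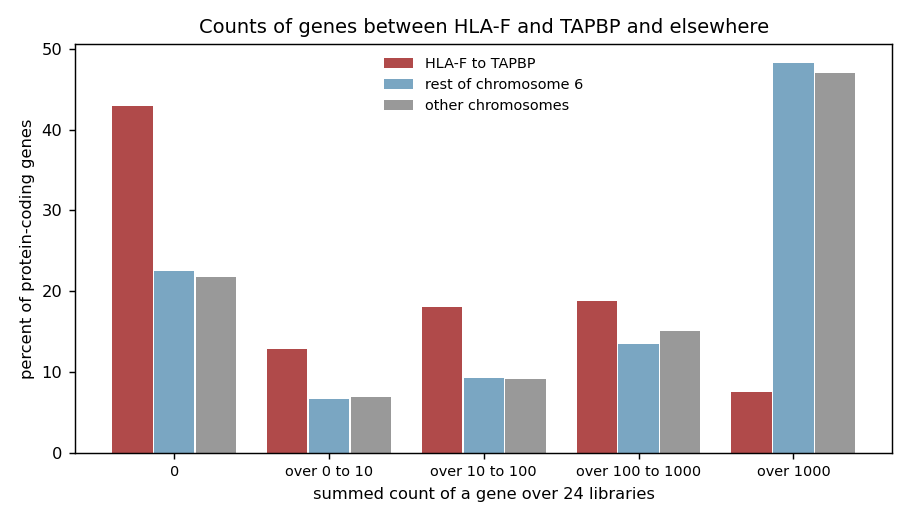
Percent of protein-coding genes (vertical axis) in 5 classes of count summed over 24 libraries (horizontal axis), for 133 genes between HLA-F and TAPBP, 787 on the rest of chromosome 6 and 17671 on other chromosomes. In the stretch 42.9% of genes had no read and 7.52% over 1000 reads, against 47% over 1000 on other chromosomes.

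Total counts ran from 4425404 to 5207195 per RT112 library and from 4519668 to 6119210 per SCaBER library. FOXA1 had 192 and 225 reads under siControl and 34 and 44 under siFOXA1 in RT112, and 20 and 28 against 4 and 6 in SCaBER, lower in 2 of 2 libraries of either line. In SCaBER FOXA1 had 14 and 1 reads with siZBED2-1 alone and 0 and 1 with siFOXA1 added, so replicate 2 of siZBED2-1 alone, which received no FOXA1 siRNA, stood at the level of the knock-down. With siZBED2-2 alone it had 25 and 20 reads and with siFOXA1 added 3 and 2. ZBED2 had 101 and 92 reads under siControl in RT112, 12 and 0 with siZBED2-1, 38 and 36 with siZBED2-2 and 27 and 7 with siFOXA1. In SCaBER it had 101 and 96 reads under siControl, 12 and 40 with siZBED2-1, 48 and 100 with siZBED2-2 and 100 and 84 with siFOXA1, so 1 of the 2 siZBED2-2 libraries stood at the control level. Under siControl, 6 of 6 tested luminal markers were lower and 5 of 6 basal markers higher in SCaBER than in RT112. In that comparison 33.6% of 14823 genes were called in either direction and 17.2% were called higher. None of 6 leukocyte markers passed the filter, and their summed count was 0 to 13 per RT112 library and 1 to 11 per SCaBER library. The summed count of 6 fibroblast and endothelial markers was 49 and 45 under siControl and 204 and 196 under siFOXA1 in RT112, and 35 and 39 against 69 and 60 in SCaBER. Of these COL1A1, a collagen gene, had 23 and 24 against 198 and 196 reads in RT112, a rise of 3.11 (SE 0.36, adjusted p 5.86e-07) on the log2 scale, and 34 and 29 against 69 and 60 in SCaBER, a change of 1.18 (SE 0.48, adjusted p 0.0905). PECAM1, an endothelial gene, was lower in RT112, with 26 and 10 against 0 and 0 reads (adjusted p 0.0112). COL3A1, DCN and PDGFRB had 0 reads in these 8 libraries, and the part of these genes in the members' values was not tested.

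Under siControl, the light chain and an immunoproteasome subunit were both higher in the basal line. B2M stood at 21.3 and 12.8 CPM in the RT112 libraries and at 51.6 and 101 in the SCaBER libraries, without overlap. Its log2 difference was 2.15 (SE 0.36, adjusted p 1.1e-05), or 4.45-fold, in the edgeR quasi-likelihood test with Benjamini-Hochberg adjustment over all genes tested, which gave every adjusted p here unless another tool is named. PSMB9 stood at 9.67 and 4.40 CPM in RT112 and at 72.0 and 81.1 in SCaBER, again without overlap, a log2 difference of 3.45 (SE 0.47, adjusted p 4.33e-07), or 10.9-fold.

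HLA-B and TAPBP differed in the same direction on fewer reads. HLA-B had 0 and 0 reads in RT112 and 29 and 64 in SCaBER (adjusted p 0.000112). Its mean CPM in SCaBER was 15.1 times the value of 3 counts per library in RT112. TAPBP had 12 and 0 reads in RT112 and 45 and 48 in SCaBER, a log2 difference of 2.81 (SE 0.93, adjusted p 0.0189) that did not pass without replicate 2 of RT112 (1.76, adjusted p 0.211) or without replicate 2 of SCaBER (adjusted p 0.0614). HLA-C, HLA-E and PSMB8 did not pass. Thus 4 of 7 tested members were called, all higher in SCaBER, against 33.6% of 14823 genes called in either direction and 17.2% called higher.

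Outside the complex, 5 of 14 regulators of class I genes were called higher in SCaBER and 1 lower. Of all genes, 33.6% were called in either direction and 17.2% higher. For 14 genes the share called in either direction is close to that of all genes, so it is no result about the regulators as a set. NLRC5 had 0 and 0 reads in RT112 and 101 and 98 in SCaBER, at least 31.9-fold higher. IRF1, a factor that activates PSMB9 and TAP1, was higher in SCaBER by 2.37 (SE 0.20, adjusted p 1.6e-11) on the log2 scale, and RFX5, which binds class I promoters together with NLRC5, by 2.48 (SE 0.44, adjusted p 2.81e-05). The CCAAT-binding subunit NFYB was lower, by a log2 difference of −0.80 (SE 0.30, adjusted p 0.0378). Of 13 tested genes of peptide loading and trimming, 9 were higher and 2 lower. The trimming peptidases ERAP1 and ERAP2 were higher by 1.14 (SE 0.30, adjusted p 0.00286) and 1.13 (SE 0.25, adjusted p 0.000591), while BCAP31, an endoplasmic reticulum protein that binds class I molecules, and the peptidase NRDC were lower, with differences of −1.29 (SE 0.12, adjusted p 1.32e-10) and −0.45 (SE 0.16, adjusted p 0.0329). Of the proteasome activator subunits, PSME2 was higher by 0.73 (SE 0.23, adjusted p 0.0156) and PSME1 differed by 0.05 (SE 0.13). The class II transactivator CIITA, with 0 and 0 reads in RT112 and 73 and 75 in SCaBER, was at least 23.8-fold higher.

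**Figure D2:**
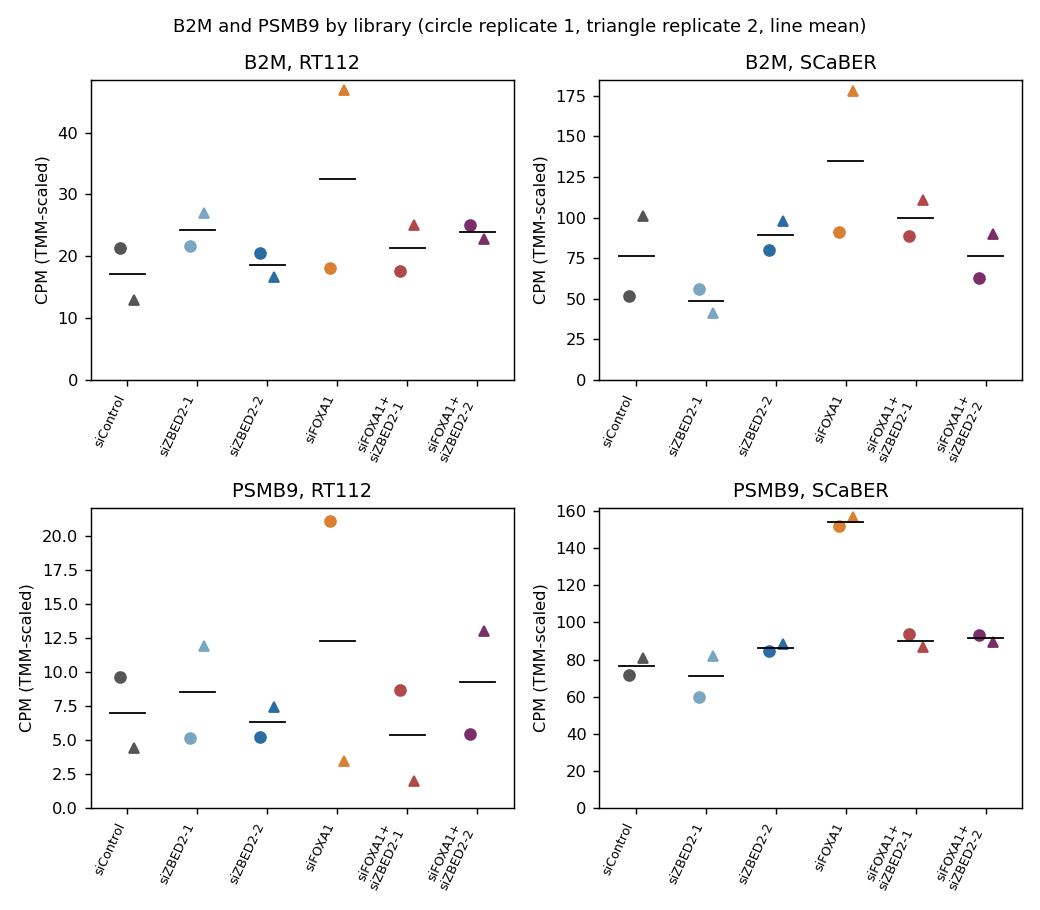
CPM on TMM-scaled totals (vertical axis, from 0) of B2M and PSMB9 in the 6 siRNA groups (horizontal axis) of RT112 and SCaBER, with circles for replicate 1, triangles for replicate 2 and a line at the mean of 2. In SCaBER PSMB9 stood at 152 and 157 CPM under siFOXA1 and at 60.0 to 93.6 in the 10 other libraries.

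In SCaBER, where FOXA1 is low from the start, the FOXA1 siRNA raised PSMB9 and B2M. PSMB9 stood at 72.0 and 81.1 CPM under siControl and at 152 and 157 under siFOXA1. Both siFOXA1 libraries lay above every other SCaBER library. The log2 change was 1.01 (SE 0.17, adjusted p 2.69e-05), with a 95% interval of 0.67 to 1.35, or 2.02-fold, and it passed under each of 10 alternatives run for it.

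B2M stood at 51.6 and 101 CPM under siControl and at 91.2 and 178 under siFOXA1. The groups overlapped, since replicate 2 of siControl lay above replicate 1 of siFOXA1, while the ratio between libraries of equal replicate number was 1.77 and 1.76. The log2 change was 0.82 (SE 0.25, adjusted p 0.0197). It was not called without replicate 1 of siControl (0.41, adjusted p 0.393), without replicate 2 of siFOXA1 (0.26, adjusted p 0.648) or with DESeq2 (adjusted p 0.193).

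The other 5 tested members did not pass. HLA-E, whose product is read by natural killer cells, had 18 and 11 reads under siControl and 27 and 53 under siFOXA1, higher in 2 of 2 libraries, with a log2 change of 1.63 (SE 0.82, adjusted p 0.185) and a 95% interval of −0.04 to 3.31. PSMB8 had 17 and 29 reads against 21 and 57, a change of 0.93 (SE 0.75). TAPBP had 45 and 48 against 60 and 51, a change of 0.40 (SE 0.41). The heavy chains HLA-B and HLA-C gave changes of opposite sign, and neither passed. HLA-B had 29 and 64 reads against 16 and 61, a change of −0.10 (SE 0.60), and HLA-C 2 and 13 against 9 and 25, a change of 1.32 (SE 1.39). TAP1, not tested, had 0 and 3 reads under siControl and 5 and 20 under siFOXA1. Thus 2 of 7 tested members were called higher, against 8.71% of 13129 genes called higher and 17.8% in either direction. The median over the 7 was 0.93 against −0.02 over all genes tested. This median is the PSMB8 value (SE 0.75), which turned direction in 1 of 4 fits that left out a library.

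**Figure D3:**
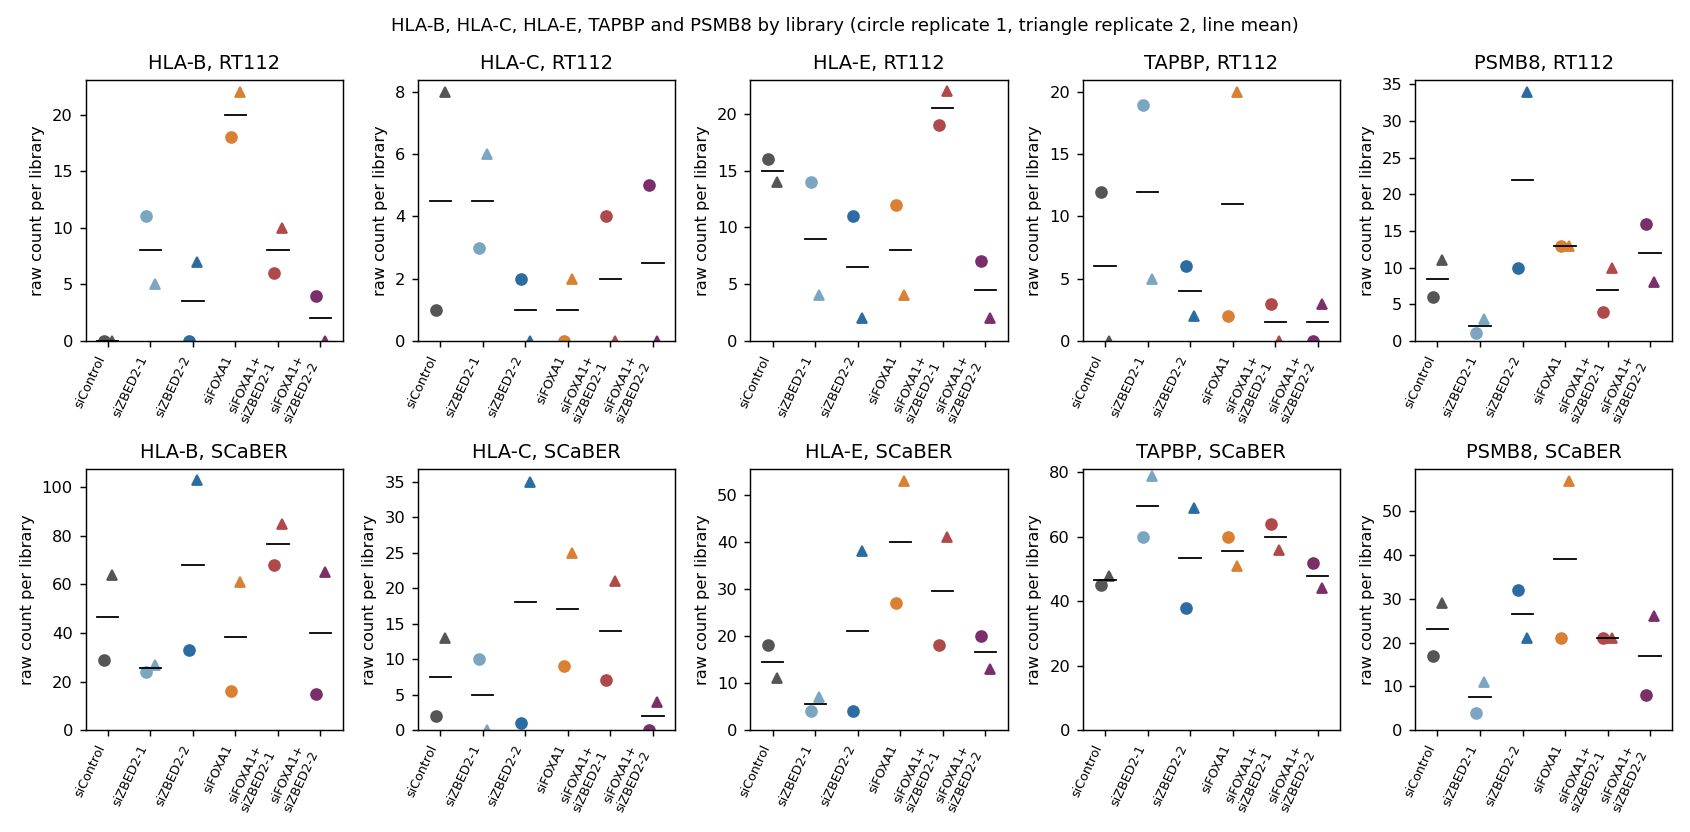
Raw counts per library (vertical axis, from 0) of HLA-B, HLA-C, HLA-E, TAPBP and PSMB8 in the 6 siRNA groups (horizontal axis), RT112 above and SCaBER below, with circles for replicate 1, triangles for replicate 2 and a line at the mean of 2. The highest value is 103 reads, for HLA-B in SCaBER, and HLA-B was higher in replicate 2 in 6 of 6 SCaBER groups.

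On the siZBED2-1 background, which shares no library with the comparison above, B2M was called higher in the double knock-down. B2M stood at 56.0 and 41.3 CPM with siZBED2-1 alone and at 88.6 and 111 in the double knock-down, without overlap. The log2 change was 1.04 (SE 0.26, adjusted p 0.0116), not called with DESeq2 (adjusted p 0.138). The call was also lost in 2 of 4 fits that left out a library, without replicate 2 of the double knock-down (0.87, adjusted p 0.149) and without replicate 2 of siZBED2-1 (0.83, adjusted p 0.241), the library with 1 FOXA1 read. PSMB9 stood at 60.0 and 81.8 CPM against 93.6 and 86.7, also without overlap, with a change of 0.35 (SE 0.17, adjusted p 0.273) that did not pass, also without that library (0.59, adjusted p 0.148). HLA-B had 24 and 27 reads against 68 and 85, a change of 1.64 (SE 0.61, adjusted p 0.125), and was called with the replicate number as a block (adjusted p 0.035). So 1 of 7 tested members was called, or 2 with the block, against 5.78% of all genes.

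On the siZBED2-2 background 0 of 7 tested members were called, against 3.03% of all genes. In the edgeR test 0 of 7 tested members had an unadjusted p under 0.05, and DESeq2 also called 0. B2M stood at 80.1 and 97.8 CPM without and 62.5 and 89.8 with the FOXA1 siRNA, a change of −0.23 (SE 0.25, adjusted p 0.759). PSMB9 stood at 84.5 and 88.4 CPM against 93.1 and 89.6, a change of 0.08 (SE 0.17, adjusted p 0.894) with a 95% interval of −0.26 to 0.42.

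Averaged over the 3 backgrounds, 3 members were called, all higher, against 24.1% of all genes and 12.1% called higher. The change was 0.48 (SE 0.10, adjusted p 0.000294) for PSMB9, 0.54 (SE 0.15, adjusted p 0.00572) for B2M and 1.36 (SE 0.49, adjusted p 0.0391) for HLA-E. Of the 6 libraries with the FOXA1 siRNA, 5 lay above all 6 without it for PSMB9 and 2 for B2M. B2M was not called with DESeq2 (adjusted p 0.104) or without replicate 2 of siFOXA1 (adjusted p 0.0606), and HLA-E, with 4 to 53 reads per library, lost its call in 8 of 12 fits that left out a library, with adjusted p up to 0.162. Without replicate 2 of siZBED2-1 the changes were 0.56 (adjusted p 0.000159) for PSMB9, 0.47 (adjusted p 0.0424) for B2M and 1.49 (adjusted p 0.0592) for HLA-E.

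**Figure D4:**
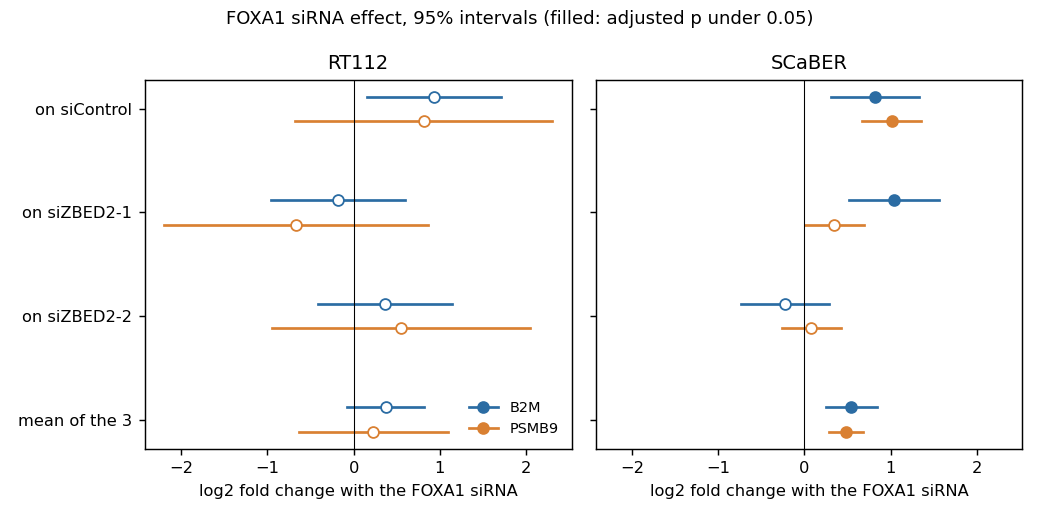
Log2 fold change with the FOXA1 siRNA (horizontal axis) with 95% intervals for B2M and PSMB9 on siControl, siZBED2-1 and siZBED2-2 and for the mean of the 3 backgrounds (vertical axis), in RT112 and SCaBER. Filled points passed at an adjusted p under 0.05, which in SCaBER were both genes on siControl (0.82 and 1.01) and on average, and B2M on siZBED2-1, and in RT112 none.

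Adding a ZBED2 siRNA to siFOXA1 in SCaBER lowered PSMB9. It stood at 152 and 157 CPM under siFOXA1, at 93.6 and 86.7 with siZBED2-1 added and at 93.1 and 89.6 with siZBED2-2 added. The 4 double knock-down libraries lay below both siFOXA1 libraries and above both siControl libraries. The log2 changes were −0.77 (SE 0.17, adjusted p 0.00494) and −0.75 (SE 0.17, adjusted p 0.0051), each the only member called, against 2.73% and 3.66% of all genes. The first was not called without replicate 2 of that double knock-down (adjusted p 0.127), nor the second without replicate 2 of siFOXA1 (adjusted p 0.0571) or of that double knock-down (adjusted p 0.0681). Both comparisons use the siFOXA1 libraries that also enter the comparison with siControl. B2M had a change of −0.43 (SE 0.25, adjusted p 0.464) with siZBED2-1 added and of −0.82 (SE 0.25, adjusted p 0.0634) with siZBED2-2 added, the latter called with the replicate block (adjusted p 0.00746).

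The interaction sets the change made by the FOXA1 siRNA on a ZBED2 siRNA against the change it made on siControl. For PSMB9 with siZBED2-2 it was −0.93 (SE 0.24, adjusted p 0.0305), with a 95% interval of −1.41 to −0.45, the only member called, against 1.57% of all genes. It was called in 1 of 8 fits that left out a library (adjusted p 0.0405 to 0.156 over the 8). With siZBED2-1 it was −0.67 (SE 0.24, adjusted p 0.188), or −0.42 (adjusted p 0.599) without replicate 2 of siZBED2-1, and 0 members were called against 1.48% of all genes. In the edgeR test 1 of 7 tested members (PSMB9) had an unadjusted p under 0.05, and DESeq2 also called 0. For B2M it was −1.04 (SE 0.36, adjusted p 0.159) with siZBED2-2, called with the replicate block (adjusted p 0.0213), and 0.22 (SE 0.36) with siZBED2-1. In these libraries ZBED2 had 48 and 100 reads with siZBED2-2 alone and 49 and 57 with siFOXA1 added.

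With a ZBED2 siRNA alone, 0 members were called in SCaBER, against 4.65% of all genes with siZBED2-1 and 0.625% with siZBED2-2. With siZBED2-1, 1 of 7 tested members (B2M) had an unadjusted p under 0.05, and DESeq2 also called 0. With siZBED2-2, 0 of 7 tested members had an unadjusted p under 0.05, and DESeq2 also called 0. PSMB9 had changes of −0.11 (SE 0.17) and 0.18 (SE 0.17), and B2M of −0.65 (SE 0.26, adjusted p 0.172) and 0.22 (SE 0.25). With siZBED2-1, B2M stood at 56.0 and 41.3 CPM against 51.6 and 101, overlapping and lower in replicate 2 alone. Without replicate 1 of siControl the change was −1.06 (adjusted p 0.0228), and without replicate 2 of siZBED2-1 it was −0.45 (adjusted p 0.661).

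In RT112 the FOXA1 siRNA gave a call for HLA-B alone. It had 0 and 0 reads under siControl and 18 and 22 under siFOXA1 (adjusted p 0.0336). HLA-B passed the filter on low counts in RT112 only through these siFOXA1 libraries, the group where it is high. The filter and the call are therefore not independent, though HLA-B was also called without that filter. Its mean CPM under siFOXA1 was 6.90 times the value of 3 counts per library under siControl. The call was lost in each of the 4 fits that left out a library of these groups. With siZBED2-1 alone HLA-B also had 11 and 5 reads. With siFOXA1 added to siZBED2-1 it had 6 and 10, a log2 change of 0.0017 (SE 1.64). With siZBED2-2 alone it had 0 and 7 reads, and 4 and 0 with siFOXA1 added, a change of −0.48 (SE 1.79). So on siControl 1 of 6 tested members was called, against 23.3% of 13264 genes in either direction and 11.3% called higher. The median over the 6 was 0.83 against −0.01 over all genes tested. This median lies between PSMB9 (0.81, SE 0.72) and TAPBP (0.84, SE 1.80). Both changes turned direction in some fits that left out a library.

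B2M in RT112 stood at 21.3 and 12.8 CPM under siControl and at 18.1 and 46.9 under siFOXA1. The groups overlapped, and the ratio between libraries of equal replicate number was 0.849 and 3.65. Its change of 0.93 (SE 0.38, adjusted p 0.0778) was 0.09 (adjusted p 0.924) without replicate 2 of siFOXA1 and 1.47 (adjusted p 0.00589) without replicate 1 of siFOXA1. PSMB9 had 44 and 24 reads under siControl and 105 and 16 under siFOXA1, a change of 0.81 (SE 0.72), with replicate 1 the highest and replicate 2 the lowest of these 4 libraries. The remaining members had few reads and no call. HLA-E had 16 and 14 reads against 12 and 4, a change of −0.88 (SE 1.28). TAPBP had 12 and 0 against 2 and 20, and PSMB8 6 and 11 against 13 and 13, changes of 0.84 (SE 1.80) and 0.68 (SE 1.24). Mitochondrial transcripts took 17.8% and 12.2% of counts under siControl and 21.4% and 22.7% under siFOXA1, and 9.73% and 10.7% against 12.9% and 12.5% in SCaBER, and their part in these values was not tested.

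In every other RT112 comparison 0 of 6 tested members were called. With the FOXA1 siRNA B2M had a change of −0.18 (SE 0.38) on siZBED2-1 and of 0.36 (SE 0.38) on siZBED2-2, where 10.3% and 8.78% of all genes were called, and of 0.37 (SE 0.22, adjusted p 0.201) on average, where 33.8% were called. The ZBED2 siRNAs alone called 8.8% and 0.166% of genes, their addition to siFOXA1 2.55% and 1.25%, and the interactions 1.14% and 0.098%. In these 9 edgeR comparisons an unadjusted p under 0.05 was found for HLA-B with siZBED2-1 alone, for HLA-B in both interactions and for B2M in the interaction with siZBED2-1, where its value was −1.11 (SE 0.53, adjusted p 0.375), and DESeq2 called 0 members.

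The difference between the lines in the siFOXA1 response was tested directly. It was −0.12 (SE 0.48) for B2M, with a 95% interval of −1.10 to 0.87, and 0.18 (SE 0.65) for PSMB9, with an interval of −1.15 to 1.50, so a difference between the lines was not shown for either gene. HLA-B was the only member called (adjusted p 0.0384), against 2.58% of all genes, and this rests on the RT112 siControl libraries at 0 and 0 reads. For the mean FOXA1 siRNA effect 0 members were called, against 8.11% of all genes. In the edgeR test 0 of 7 tested members had an unadjusted p under 0.05, and DESeq2 also called 0.

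Other genes of the pathway, outside the 9 and on other chromosomes for the most part, were followed in lists. Of the immunoproteasome partners, the activator subunits PSME1 and PSME2 and the assembly factor POMP were tested, while the third inducible subunit PSMB10 had at most 9 reads in any library. Under siFOXA1, 1 of 3 was called in RT112 and 2 of 3 in SCaBER, all higher, against 11.3% and 8.71% of all genes called higher. PSME1 rose by 0.55 (SE 0.14, adjusted p 0.00622) in RT112 and by 0.58 (SE 0.13, adjusted p 0.00104) in SCaBER, PSME2 had a change of 0.60 (SE 0.26, adjusted p 0.108) in RT112 and 0.66 (SE 0.17, adjusted p 0.00509) in SCaBER, while for POMP the changes were 0.07 (SE 0.13) and 0.34 (SE 0.12, adjusted p 0.0533). In the mean over 3 backgrounds 3 of 3 were called higher in both lines, against 33.8% and 24.1% of all genes called in either direction.

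Of the 5 constitutive proteasome counterparts, 2 were called higher and 0 lower under siFOXA1 in either line, against the same shares of all genes called higher under siFOXA1. PSMB7, the subunit that PSMB10 replaces, rose by 0.53 (SE 0.14, adjusted p 0.00731) in RT112 and 0.80 (SE 0.13, adjusted p 1.9e-05) in SCaBER. PSMB5, replaced by PSMB8, rose by 0.61 (SE 0.13, adjusted p 0.0011) in RT112 and had a change of 0.29 (SE 0.13, adjusted p 0.125) in SCaBER, and PSMB6, replaced by PSMB9, had changes of 0.35 (SE 0.17, adjusted p 0.14) and 0.31 (SE 0.13, adjusted p 0.103). Of the other proteasome activators, PSME3 had a change of −0.07 (SE 0.16) and −0.06 (SE 0.17), whereas PSME4 had a change of 0.10 (SE 0.20) in RT112 and rose by 1.11 (SE 0.16, adjusted p 3.52e-06) in SCaBER, with a difference between the lines of 1.02 (SE 0.26, adjusted p 0.0218). Reads of PSMB9 per 100 reads of PSMB6 in SCaBER were 30.9 and 38.4 under siControl, 55.2 and 56.8 under siFOXA1 and 32.8 to 42.6 in the 4 double knock-down libraries, and the siFOXA1 pair lay above all 10 other libraries, of which the highest was 43.6.

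Among the regulators of class I genes, NLRC5 and IRF2 were called higher under siFOXA1 in both lines, NFYB was called lower in both and RFXANK lower in RT112. NLRC5 had 101 and 98 reads under siControl and 193 and 195 under siFOXA1 in SCaBER, a rise of 1.11 (SE 0.27, adjusted p 0.00266). In RT112 it had 0 and 0 reads against 17 and 29, at least 7.98-fold higher (adjusted p 0.0105), and 10 and 9 with siZBED2-1 alone. IRF2, a factor that binds ISRE letters, rose by 0.84 (SE 0.30, adjusted p 0.042) in RT112 and 0.62 (SE 0.21, adjusted p 0.0421) in SCaBER. NFYB, a subunit of the CCAAT-binding factor, was lower, with changes of −1.02 (SE 0.30, adjusted p 0.015) and −1.40 (SE 0.32, adjusted p 0.00165).

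IRF1 and RFX5, both activators of class I genes, were called in neither line under siFOXA1. IRF1 had a change of 0.51 (SE 0.25, adjusted p 0.157) in RT112 and of 0.02 (SE 0.14) in SCaBER, and RFX5 of −0.06 (SE 0.71) and −0.04 (SE 0.28).

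Of 14 genes of peptide loading and trimming, 11 were tested in RT112, with 2 called higher and 2 lower under siFOXA1, against 23.3% of all genes in either direction. In SCaBER 13 were tested, with 4 higher and 1 lower, against 17.8%. The lectin chaperone CALR rose by 0.53 (SE 0.12, adjusted p 0.00171) in RT112 and 0.52 (SE 0.10, adjusted p 0.000133) in SCaBER, and also with siZBED2-1 alone, by 0.41 (SE 0.12, adjusted p 0.0284) and 0.43 (SE 0.10, adjusted p 0.00535). Its relative CANX had changes of 0.10 (SE 0.12) and 0.03 (SE 0.10). The disulfide isomerase PDIA3 of the loading complex had a change of −0.21 (SE 0.13) in RT112 and rose by 0.41 (SE 0.12, adjusted p 0.0193) in SCaBER, and the lines differed in the mean effect by 0.51 (SE 0.11, adjusted p 0.00256). The trimming peptidase ERAP1 had changes of −0.18 (SE 0.40) and 0.22 (SE 0.24), and ERAP2 of 0.27 (SE 0.28) and 0.07 (SE 0.19). THOP1, a cytosolic peptidase that degrades antigenic peptides, was lower in both lines, with changes of −1.21 (SE 0.20, adjusted p 8.17e-05) and −0.87 (SE 0.17, adjusted p 0.000213).

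The heavy-chain gene HLA-F, outside the 9, was thinly counted in RT112. HLA-F had 0 to 3 reads per RT112 library, and in SCaBER 90 and 169 under siControl against 168 and 319 under siFOXA1, a rise of 1.07 (SE 0.32, adjusted p 0.0147). The class II transactivator CIITA had a change of −0.75 (SE 0.54) under siFOXA1 in SCaBER.

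**Figure D5:**
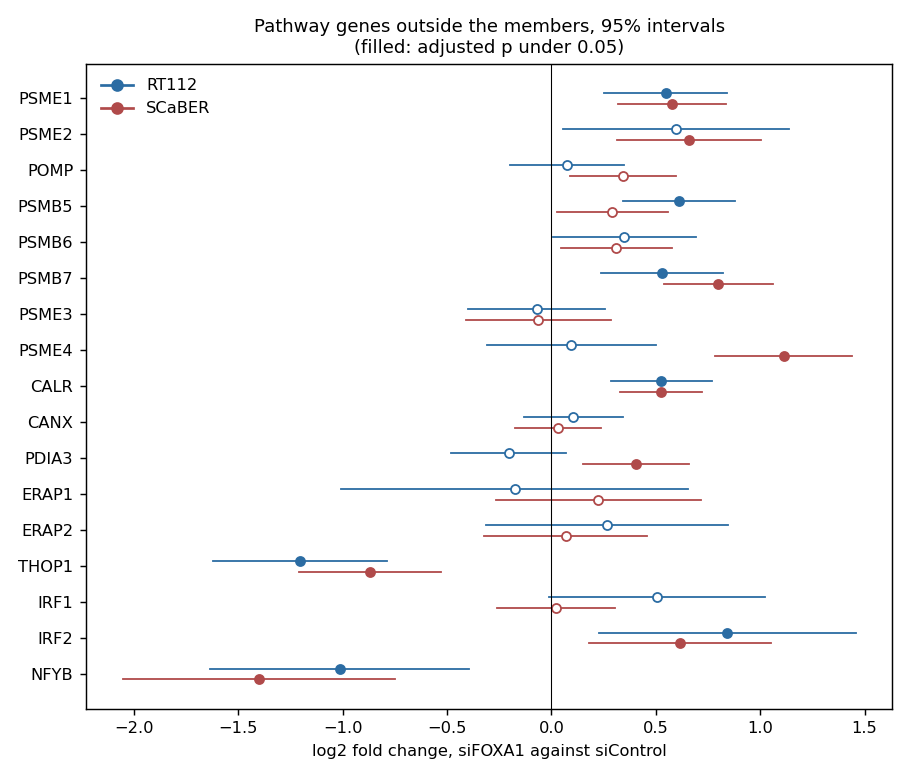
Log2 fold change of siFOXA1 against siControl (horizontal axis) with 95% intervals for pathway genes outside the 9 members (vertical axis), in RT112 and SCaBER, with filled points for an adjusted p under 0.05. CALR, PSME1, PSMB7 and IRF2 were called higher and THOP1 and NFYB lower in both lines, and PSME4 was called in SCaBER, with a tested line difference of 1.02.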

How the data were processed

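Per the labels, libraries were made by 3′ mRNA-seq from cells of both lines after siRNA transfection. Reads were checked with raw-qc 2.1.0, trimmed with TrimGalore 0.6.2 (minimum quality 20, minimum length 10) and aligned with STAR 2.6.1a to hg38, and the authors deposited raw counts per gene (GENCODE release 29) and TPM values, for which the tool is not given in the sources used here. The study's methods name another genome build, hg19, for such data. Only the count table entered the main tests, and the deposited TPM one alternative.

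The members and the pathway and marker lists were chosen with earlier results of these data known. All 9 members are named, with values for preset genes of the lists and for genes called under siFOXA1 in both lines, and some genes of the lists are not reported here. Counts were fitted with edgeR 4.0.16 in R 4.3.3 (quasi-likelihood, TMM, filterByExpr with a minimum count of 10 and a minimum total of 15, 1 mean per group), over 12 libraries within a line and 24 between lines, and called at an adjusted p under 0.05 (Benjamini-Hochberg over all genes tested). The steps were tested on simulated data. Alternatives were DESeq2 1.42.0, limma 3.58.1 on log2(TPM + 1), other scalings, no filter, a replicate block and leaving out each library. The labels give the replicate number as an experiment batch, which pairs libraries. Over all tested genes, deviations from group means correlated little between libraries of equal number (mean r 0.0286 in RT112 and 0.0206 in SCaBER, 0 of 15 pairs over 0.1 in either line). This does not describe single members. In SCaBER replicate 2 was higher in 6 of 6 groups for HLA-B, 5 of 6 for B2M and 4 of 6 for PSMB9. Overlapping antisense genes cannot be separated where strand was not counted.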

Additional observations from a re-analysis of the deposited data

Results flagged for a closer look

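For PSMB9 in SCaBER, the change made by the FOXA1 siRNA with siZBED2-2 present differed from the change on siControl, by −0.93 on the log2 scale (SE 0.24, adjusted p 0.0305, edgeR). The change was 1.01 on siControl and 0.08 on siZBED2-2, and 2 libraries stand behind each of the 4 groups. The difference did not pass in 7 of 8 fits that left out a library. It also did not pass with limma on log2(TPM + 1) or with library size alone.

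For HLA-B, the lines differed in the response to siFOXA1, with a fitted log2 difference of −7.49 (SE 2.03, adjusted p 0.0384, edgeR). The counts were 0 and 0 under siControl and 18 and 22 under siFOXA1 in RT112, and 29 and 64 against 16 and 61 in SCaBER. Because a group stands at 0, the size of this value depends on the prior count and is no bound. The difference did not pass in 5 of 8 fits that left out a library.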

How the results depend on the processing

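Size factors by RLE in place of TMM moved no count of called members by over 1.5 times and no call of a named member. With the replicate number as a block, the SCaBER counts of called members became 2 (from 1) for the FOXA1 siRNA on siZBED2-1, 2 (from 1) for siZBED2-2 added to siFOXA1 and 2 (from 1) for the interaction with siZBED2-2, and the block changed no other call. Without a filter on low counts they became 2, 2 and 2 in the same comparisons and 1 (from 0) for siZBED2-1 alone. With DESeq2 they became 1 (from 2) for siFOXA1 and 0 for the FOXA1 siRNA on siZBED2-1, and with library size alone 0 for the interaction with siZBED2-2. With limma on log2(TPM + 1) they became 1 for siFOXA1, 1 (from 3) for the mean FOXA1 siRNA effect, and 0 for the FOXA1 siRNA on siZBED2-1, for either ZBED2 siRNA added to siFOXA1 (0 and 0), for the interaction with siZBED2-2 (0) and for the line difference of the siFOXA1 response (0), and the line difference of B2M turned to 0.21. The median of all genes under siFOXA1 was −0.26 with TPM and −0.11 with library size alone in RT112, and −0.13 and −0.09 in SCaBER. The cause of these differences was not tested.

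Leaving out 1 library at a time, counts of called members ran from 0 to 1 for siFOXA1 and 0 to 1 for the mean effect in RT112. In SCaBER they ran from 1 to 2 for siFOXA1, 0 to 1 on siZBED2-1, 1 to 3 for the mean effect, 0 to 1 for siZBED2-1 alone, 0 to 1 and 0 to 2 for siZBED2-1 and siZBED2-2 added to siFOXA1 and 0 to 2 for the interaction with siZBED2-2. Between the lines they ran from 3 to 4 under siControl and 0 to 1 for the siFOXA1 response. Log2 changes of uncalled members that turned direction in RT112 ran from −1.01 to 1.60 (PSMB9) and −1.62 to 6.55 (TAPBP) under siFOXA1, and for B2M from −0.46 to 0.045 on siZBED2-1, −1.14 to 0.24 with siZBED2-1 added to siFOXA1 and −0.98 to 0.40 with siZBED2-2 added. In SCaBER they ran from −1.47 to 0.63 (HLA-B) and −0.069 to 1.52 (PSMB8) under siFOXA1, from −0.35 to 0.10 for PSMB9 with siZBED2-1 alone, and for B2M from −0.51 to 0.013 for the FOXA1 siRNA on siZBED2-2, −0.18 to 0.79 with siZBED2-2 alone, −0.84 to 0.13 with siZBED2-1 added to siFOXA1 and −0.34 to 0.78 for the interaction with siZBED2-1. The line difference of the siFOXA1 response ran from −0.67 to 0.72 for B2M and −0.60 to 2.01 for PSMB9. With 2 libraries per group and under 100 reads for most members on chromosome 6, changes of these members smaller than their intervals were not detectable at this depth.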

Other observations

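In SCaBER, 3 of 5 tested class II genes were lower with siZBED2-1 alone, against 4.65% of all genes called in either direction, and these were named after their values were seen, except CIITA. CIITA, the class II transactivator, had 73 and 75 reads under siControl, 19 and 19 with siZBED2-1 and 23 and 80 with siZBED2-2, a log2 change with siZBED2-1 of −1.97 (SE 0.57, adjusted p 0.0369) in the edgeR test. HLA-DRB1, a class II chain, was lower by a log2 change of −1.47 (SE 0.36, adjusted p 0.0106) and the invariant chain CD74 by −0.85 (SE 0.21, adjusted p 0.0118). Both siZBED2-1 libraries lay below both siControl libraries for each of the 3 genes. Of the other B2M partners listed (MR1, HFE, CD1D and FCGRT), MR1, which presents metabolites with B2M, was the only one called under siFOXA1, in SCaBER. It had 136 and 105 reads against 225 and 197, a change of 0.96 (SE 0.26, adjusted p 0.00841). In that comparison 8.71% of all genes were called higher and 17.8% in either direction.

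The genes whose pattern was most like that of the members, ranked among 11757 genes by the lower of 2 Pearson correlations with the members' mean centred log2 CPM over the 12 libraries of each line, were IP6K2, RIPK2, SCARNA21, HDAC9 and RER1. The correlations were 0.745 in RT112 and 0.709 in SCaBER for IP6K2, and 0.702 and 0.743 for RIPK2. They are descriptions across libraries that share treatments and depth. The members' values were centred but not scaled, so members with few reads can weigh more in the mean. In RT112 HLA-B ran from −3.45 to 2.27 in log2 CPM on 0 to 22 reads, and B2M from 3.69 to 5.55.

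In SCaBER, replicate 2 held the higher CPM of the pair in 6 of 6 groups for HLA-B, in 5 of 6 for B2M, HLA-C and PSMB8, and in 4 of 6 for PSMB9. In RT112 it did so in 3 of 6 for B2M and PSMB9.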
